A study of Mus musculus with 16 samples.

Results

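Expression of 10 genes of insulin and insulin-like growth factor (IGF) signalling was measured in mouse ventricular myocardium: the ligand gene Igf1, the receptor genes Igf1r and Insr, the receptor substrate genes Irs1 and Irs2, and the IGF binding protein genes Igfbp3, Igfbp4, Igfbp5, Igfbp6 and Igfbp7. Members were the genes of this list whose symbol was the only one annotated to a probe set (a set of short probes for one transcript). All 10 of 10 were measured, by 28 probe sets, among 18193 genes tested. For each gene the brightest probe set, by its mean over the 16 arrays, was used and the others served as a check. The measure was the microarray signal on a log2 scale, on which a difference of 1 is a doubling, and levels of different genes cannot be compared on it.

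IGF1 is a secreted growth factor made in liver under growth hormone and also locally, in the heart also by non-myocyte cells. It acts through the receptor tyrosine kinase IGF1R, and insulin acts through the related INSR. Both receptors phosphorylate the docking proteins IRS1 and IRS2, which engage PI3 kinase, AKT and mTOR to promote glucose uptake, protein synthesis and cell survival. The binding proteins hold IGFs in plasma and matrix and either limit or prolong their access to the receptor, and proteases release the bound IGF.

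The mice lacked A2AR, the adenosine 2A receptor, which couples extracellular adenosine to cyclic AMP, or were their wild-type littermates. The knockout was in the germline and so not limited to the heart. All were males of 14 weeks on the CD1 background. They received lipopolysaccharide (LPS, the outer membrane component of Gram-negative bacteria that models endotoxemia) at 20 mg/kg into the peritoneum, or saline, 24 h before the ventricles were taken. This gave 4 groups of 4 arrays, namely saline and LPS in wild-type mice and saline and LPS in knockouts. No label states pooling or which animal an array came from, so p-values measure the spread between these arrays. The genotype rests on the labels, and the level of the targeted receptor transcript is not reported here.

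The arrays agreed in overall brightness, with medians between 4.62 and 4.67 log2 units. The tissue label was checked with 10 cardiomyocyte marker genes, whose mean level lay between 13.36 and 13.85 on every array. A pair of arrays stood apart within their groups. The 4th wild-type LPS array had the highest mean of 9 fibroblast markers in its group (9.99, against 8.70 to 9.38 on the other arrays). The 2nd knockout LPS array had the lowest in its group (8.59, against 9.28 to 9.43). The 1st and 4th wild-type saline arrays had 8 skeletal muscle markers at a mean of 6.88 and 8.41, against 4.63 to 5.04 on the other arrays. For the members, where leaving out one of these arrays ended or made a call, or turned or clearly moved an LPS change, the value without it stands beside the result. For genes outside the members no such value is given.

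The sequences upstream of the 4 members with the largest LPS changes in either genotype are shown because they differ in base composition. They come from RefSeq (assembly GRCm38.p6), and each covers the 250 bases before the annotated transcription start, 5′ to 3′ on the gene's strand, with CG dinucleotides in capitals. The table held 9 of the 10 members, and Insr was not found in it.
Igf1 (chr10:87860861-87861110, plus strand): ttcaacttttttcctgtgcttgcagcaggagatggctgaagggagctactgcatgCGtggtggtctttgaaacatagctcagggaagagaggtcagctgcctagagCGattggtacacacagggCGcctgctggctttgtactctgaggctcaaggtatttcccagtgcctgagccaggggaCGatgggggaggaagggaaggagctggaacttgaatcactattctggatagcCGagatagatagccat
Igfbp5 (chr1:72874866-72875115, minus strand): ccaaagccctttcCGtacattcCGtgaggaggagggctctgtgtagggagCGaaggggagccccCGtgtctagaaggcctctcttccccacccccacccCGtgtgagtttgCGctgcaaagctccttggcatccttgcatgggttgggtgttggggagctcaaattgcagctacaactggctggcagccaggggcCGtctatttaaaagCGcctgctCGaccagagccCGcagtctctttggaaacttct
Igfbp6 (chr15:102143936-102144185, plus strand): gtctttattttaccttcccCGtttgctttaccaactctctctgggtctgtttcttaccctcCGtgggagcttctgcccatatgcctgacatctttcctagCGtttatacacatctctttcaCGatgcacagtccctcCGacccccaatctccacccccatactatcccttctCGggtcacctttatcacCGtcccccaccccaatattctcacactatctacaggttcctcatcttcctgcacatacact
Igfbp3 (chr11:7213924-7214173, minus strand): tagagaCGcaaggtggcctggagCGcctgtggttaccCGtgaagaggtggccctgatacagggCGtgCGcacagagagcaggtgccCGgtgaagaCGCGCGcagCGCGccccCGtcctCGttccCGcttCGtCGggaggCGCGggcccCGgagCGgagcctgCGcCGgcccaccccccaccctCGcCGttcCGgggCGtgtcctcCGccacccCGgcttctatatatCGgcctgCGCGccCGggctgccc
The upstream sequence of Igf1 held 5 CG dinucleotides and was 52.8% G and C. Those of Igfbp5 and Igfbp6 held 10 and 7 and were 58.8% and 49.6% G and C. Igfbp3 had 32 CG dinucleotides and 73.2% G and C, and the median over 32851 RefSeq promoters was 6 and 52.4%. The remaining members with a sequence, Igf1r, Irs1, Irs2, Igfbp4 and Igfbp7, had between 22 and 42 CG dinucleotides. Thus the 3 members with the fewest CG dinucleotides upstream were Igf1, Igfbp5 and Igfbp6, while Irs1, with 28, was among the CG-rich ones. This is a description of 9 sequences and no test was made of it.

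Short motifs, 6 in all, were searched on both strands of these 250-base windows. GTAAACA, a FOXO motif, was in none of the 9 members and in 3.17% of all promoters. TTCNNNGAA, a STAT motif, was in none of the 9 and in 7.02% of all promoters, and TGACGTCA, the cyclic AMP response element, was in none of the 9 and in 1.55%. GGGCGG, the Sp1 motif, was in 4 members (Igf1r, Irs1, Irs2 and Igfbp7) and in 32.7% of all promoters. TATAAA was in Igfbp4 and Igfbp6 and in 12.4%. CACGTG, a palindromic E-box, was in both receptor substrate genes only and in 6.02% of all promoters. The 60 bases around that E-box, in capitals, were compared because Irs1 and Irs2 encode related proteins.
Irs1 (chr1:82291522-82291581, minus strand): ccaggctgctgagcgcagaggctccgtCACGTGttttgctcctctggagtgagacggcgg
Irs2 (chr8:11008941-11009000, minus strand): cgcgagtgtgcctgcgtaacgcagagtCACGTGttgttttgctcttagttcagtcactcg
The E-box lay at bases -115 to -110 from the start of Irs1 and at -44 to -39 from that of Irs2. The windows were identical at 28 of 60 positions when aligned on the E-box. The E-box sat in an identical run of 10 bases, with 2 shared bases on either side. A match in letters does not show a bound site.

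Genes were called at an adjusted p under 0.05 (limma, Benjamini-Hochberg over all 18193 genes). After LPS, Igf1 and Igfbp5 were called lower and Igfbp3 higher in both genotypes, and Irs1 and Igfbp6 were called lower in knockout hearts only. In wild-type hearts Irs1 changed by -0.16 and Igfbp6 by -0.71. For neither gene was the difference of responses called (-0.64 and -0.27), so these calls do not separate the genotypes. Of 27 other settings, 5 lost the wild-type call of Igfbp3 and 3 the knockout call of Igfbp6. In wild-type hearts 1 member rose and 2 fell, where 9.28% of all genes rose and 11.6% fell. In knockout hearts 1 member rose and 4 fell, where 11.4% of all genes rose and 14.7% fell. LPS arrays were clear of the saline arrays for 4 members in wild-type hearts (Igf1, Igfbp3, Igfbp5 and Igfbp7) against 22.8% of all genes. They were clear for 5 members in knockout hearts (Igf1, Irs1, Igfbp3, Igfbp5 and Igfbp6) against 28.5% of all genes. The median change of the 10 members was -0.016 in the wild type and -0.16 in the knockout, beside -0.0035 and -0.018 over all genes tested. The median size of the change, regardless of sign, was 0.21 and 0.75 for the members and 0.15 and 0.17 for all genes. The knockout median lay between Irs2 (0.70, not called, and 0.19 without the 2nd knockout LPS array) and Irs1 (-0.80), so it moved with that array. All genes include dim ones, whereas the members lay between percentiles 53.1 and 96.5 of mean level. Members were chosen with earlier results of these data known, so these counts and medians are no test. In whole ventricle, fewer cells of a type and less RNA per cell cannot be told apart.

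**Figure D1:**
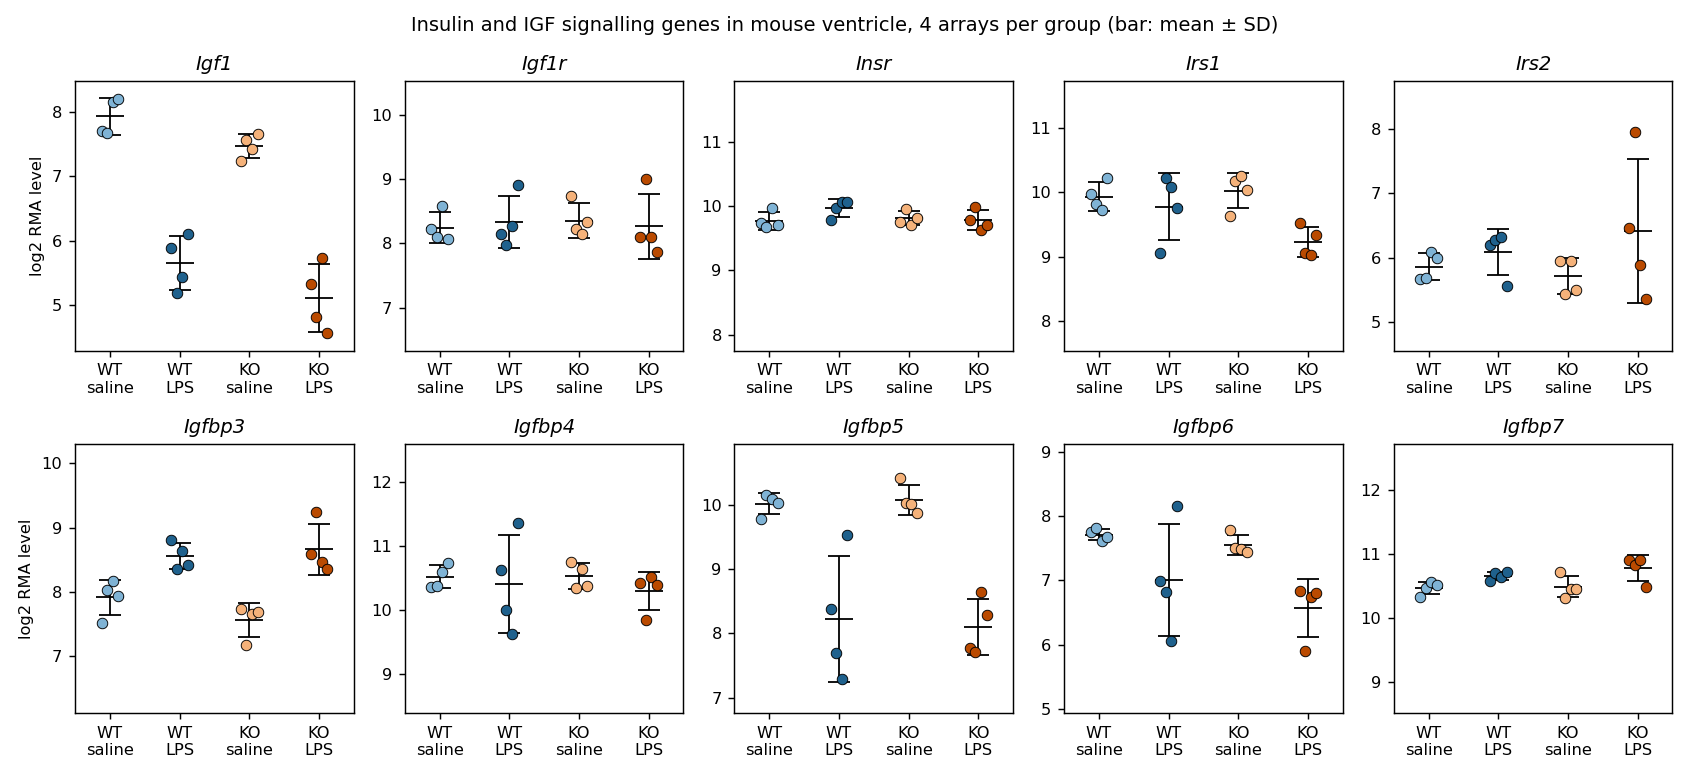
Log2 level of the 10 genes on each of the 16 arrays, by genotype (WT wild-type, KO A2AR knockout) and treatment. Points are single arrays, the horizontal line is the group mean and the error bar 1 SD (n = 4), and every panel spans the same number of log2 units. Igf1 is lower on all 8 LPS arrays than on all 8 saline arrays, and 1 wild-type LPS array of Igfbp5 lies at 9.53, near the saline arrays.

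Igf1, the ligand, showed the largest change of the 10 members in both genotypes. Its log2 levels were 7.70, 7.67, 8.16 and 8.21 in wild-type saline hearts and 5.88, 5.19, 5.43 and 6.10 in wild-type LPS hearts. They were 7.24, 7.56, 7.43 and 7.66 in knockout saline hearts and 5.32, 4.81, 5.73 and 4.56 in knockout LPS hearts. Every LPS array lay below every saline array, whatever the genotype. The fall was 4.87-fold in wild-type hearts (log2 change -2.28 ± 0.24 SE, limma adjusted p = 3.29e-06, n = 4 against 4). In knockout hearts it was 5.15-fold (-2.37 ± 0.24, limma adjusted p = 1.90e-06). The group means ran from wild-type saline (7.93 ± 0.29 SD) through knockout saline (7.47 ± 0.18) and wild-type LPS (5.65 ± 0.42) to knockout LPS (5.11 ± 0.52). The step from saline to LPS exceeded the spread, whereas the LPS arrays of the genotypes overlapped.

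All 4 probe sets of Igf1 were called lower in both genotypes. Their log2 changes ran from -2.28 to -1.08 in wild-type and from -2.49 to -1.31 in knockout hearts. The smallest changes belonged to a probe set with a mean level of 5.83 over the arrays, against 6.54 for the one used. The dimmest probe set, at 5.02, changed more than that, by -1.43 and -1.52, so the size did not simply follow the level. The 3 genes whose levels over the 16 arrays followed those of Igf1 most closely, after removing each gene's own mean, were Fmod, Gpc6 and Fbln5, at root mean square differences of 0.32, 0.37 and 0.37 log2 units. Fmod and Fbln5 encode extracellular matrix proteins and Gpc6 a cell surface proteoglycan. Fmod changed by -2.51 and -2.38 after LPS in wild-type and knockout hearts.

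The receptor genes were not called in any comparison. Igf1r encodes the IGF1 receptor, and its levels were 8.25 ± 0.24, 8.33 ± 0.40, 8.36 ± 0.26 and 8.27 ± 0.50 (SD) in wild-type hearts after saline and after LPS and in knockout hearts after saline and after LPS. These means lay within 1 SD of each other. The LPS change of Igf1r was 0.08 in wild-type hearts, with a 95% interval from -0.41 to 0.57, and -0.09 in knockout hearts, from -0.58 to 0.40. The highest Igf1r levels of the LPS groups, 8.91 and 9.0, came from the 4th wild-type and the 2nd knockout LPS array, which stood apart on the fibroblast markers. Without the former the wild-type change was -0.11, and without the latter the knockout change was -0.34, neither of them called. None of the 5 Igf1r probe sets was called after LPS. On the 2nd knockout LPS array all of them were the highest of their group. On the 4th wild-type LPS array they disagreed. The probe set at a mean level of 6.57 read 6.88 there, near the top of its group, whereas that at 6.28 read 5.53, its lowest of all arrays.

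Insr, the insulin receptor gene, had levels of 9.77 ± 0.14, 9.97 ± 0.14, 9.81 ± 0.11 and 9.78 ± 0.16 (SD) in the same order of groups. Its LPS change was 0.20 in wild-type hearts (95% interval -0.02 to 0.42, limma adjusted p = 0.215). In knockout hearts it was -0.03 (-0.25 to 0.19), and -0.10 without the 2nd LPS array. All 16 arrays lay between 9.63 and 10.07, and neighbouring groups overlapped. None of the 3 Insr probe sets was called.

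Irs1, the first insulin receptor substrate described, fell in knockout hearts. Its knockout levels were 9.64, 10.18, 10.25 and 10.04 after saline and 9.52, 9.05, 9.02 and 9.33 after LPS. These arrays did not overlap, and the log2 change was -0.80 ± 0.21 SE, a 1.74-fold fall (limma adjusted p = 0.0103). In wild-type hearts Irs1 was 9.97, 9.82, 9.72 and 10.23 after saline and 9.05, 10.23, 10.08 and 9.76 after LPS. One wild-type LPS array lay as low as the knockout LPS arrays and the others lay among the saline arrays. The wild-type change was -0.16 ± 0.21 (limma adjusted p = 0.691), and 0.008 without both saline arrays that were high for skeletal muscle markers. The difference of the 2 responses was -0.64 (95% interval -1.28 to -0.0024, before any adjustment), and it was not called (limma adjusted p = 0.959). Irs1 has 1 probe set here. The genes nearest to it in level over the arrays were Rtl6, Pdp1, the phosphatase that activates pyruvate dehydrogenase, and AW549877, at 0.24, 0.24 and 0.25 log2 units.

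Irs2, the receptor substrate prominent in liver and pancreatic islets, was not called in either genotype. Its levels were 5.67, 5.68, 6.08 and 6.0 in wild-type saline and 6.2, 6.27, 6.32 and 5.56 in wild-type LPS hearts. Knockout hearts had 5.95, 5.44, 5.95 and 5.50 after saline and 6.46, 7.95, 5.89 and 5.35 after LPS. The knockout LPS arrays thus ran from below the lowest saline array to far above the highest, an SD of 1.12 against 0.21 to 0.36 in the other groups. The LPS change was 0.23 ± 0.38 SE in wild-type and 0.70 ± 0.38 in knockout hearts (limma adjusted p = 0.752 and 0.196). Without the 4th wild-type LPS array the wild-type value was 0.40, not called. The knockout value was 1.06 with limma adjusted p = 0.0308 without the 4th knockout LPS array, and 0.19 without the 2nd. That 2nd array also had the lowest cardiomyocyte marker mean of all arrays (13.36), but the markers did not move together there. Several were the lowest of the group, Pln by far (11.69, against 13.07 to 13.73). Mybpc3 (12.66), Ttn (13.83) and Myh6 (14.38) were the highest of the group on that array. The low mean thus rested largely on Pln and does not stand for the whole list. Over the 16 arrays, less their group means, Irs2 and the cardiomyocyte marker mean had a correlation of -0.90, and of -0.73 over 14 arrays without the pair that stood apart. Other lists were tied to Irs2 as well. Over 16 and 14 arrays the correlation was 0.83 and 0.32 with T and B lymphocyte markers and -0.71 and -0.23 with macrophage and monocyte markers. With endothelial markers it was -0.17 and 0.61. Irs2 and the markers come from the same arrays, and the part of the markers in the Irs2 level was not tested.

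**Figure D2:**
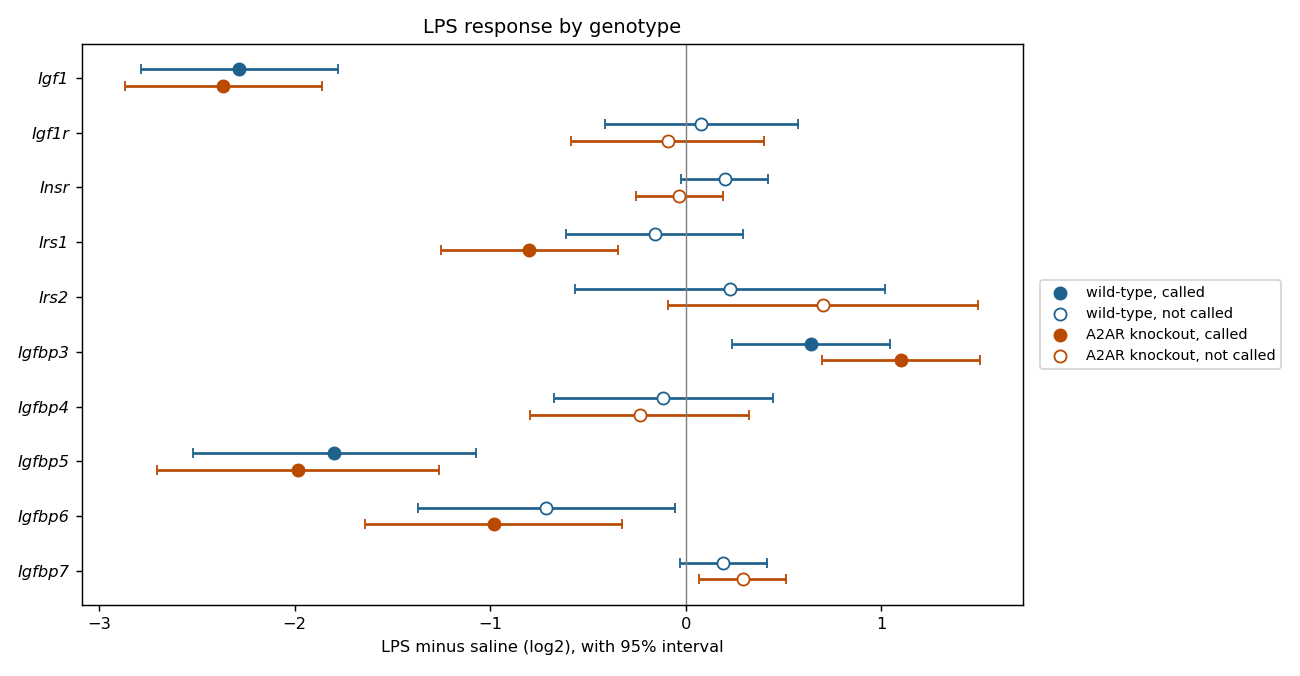
Log2 difference between LPS and saline hearts for the 10 genes, with 95% limma intervals, in wild-type (blue) and A2AR knockout hearts (orange). Filled points were called at an adjusted p under 0.05. Igf1 and Igfbp5 lie left of zero and Igfbp3 right of it in both genotypes, and the wild-type and knockout intervals of every gene overlap.

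Among the binding proteins, Igfbp5 fell in both genotypes. IGFBP5 is a secreted, matrix-binding protein that either augments or restrains IGF action. Its levels were 9.79, 10.16, 10.10 and 10.03 in wild-type saline hearts and 8.38, 7.69, 7.29 and 9.53 in wild-type LPS hearts. They were 10.42, 10.03, 10.01 and 9.87 in knockout saline and 7.77, 7.71, 8.64 and 8.28 in knockout LPS hearts. All LPS arrays lay below all saline arrays, and the 4th wild-type LPS array came closest to them. The fall was 3.47-fold in wild-type hearts (-1.80 ± 0.34 SE, limma adjusted p = 0.00107) and 3.96-fold in knockout hearts (-1.98 ± 0.34, limma adjusted p = 0.000367). Without the 4th wild-type LPS array the wild-type change was -2.23. The second Igfbp5 probe set, at a mean level of 6.32, was also called, with changes of -0.45 and -0.52. The probe sets of this gene therefore differed in the size of the change. Levels nearest to those of Igfbp5 were found for Cxcl12, a chemokine gene, Pltp, which encodes phospholipid transfer protein, and Sparcl1, a matrix protein gene, at 0.20, 0.24 and 0.25 log2 units.

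Igfbp6, whose product binds IGF2 in preference to IGF1, fell in knockout hearts. Levels in knockout hearts were 7.78, 7.5, 7.49 and 7.45 after saline and 6.84, 5.90, 6.75 and 6.81 after LPS. The arrays did not overlap, and the change was -0.98 ± 0.31 SE, a 1.98-fold fall (limma adjusted p = 0.0267). Without the 2nd knockout LPS array it was -0.76 (limma adjusted p = 0.0912), and with the 4th wild-type LPS array left out as well the same value was called (limma adjusted p = 0.00237). Leaving out the 1st or the 2nd knockout saline array also ended the call, at -0.91 (limma adjusted p = 0.0694) and -1.0 (0.0515). Wild-type levels were 7.75, 7.82, 7.61 and 7.68 after saline and 6.99, 6.82, 6.05 and 8.16 after LPS. The 4th wild-type LPS array was the highest of all 16 and the other 3 lay below every saline array. The wild-type change was -0.71 ± 0.31 (limma adjusted p = 0.125), and -1.10 without that array (limma adjusted p = 0.00140). Without the 3rd LPS array it was -0.39 (limma adjusted p = 0.401), so the wild-type value moved in both directions with single arrays. The nearest genes were Mxra8, Col1a2, a type I collagen chain and one of the fibroblast markers, and Rab3il1, at 0.15, 0.19 and 0.19 log2 units.

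Igfbp3, the main carrier of IGFs in plasma, was the only member that rose. Wild-type levels were 7.52, 8.03, 8.16 and 7.94 after saline and 8.80, 8.36, 8.64 and 8.41 after LPS. Knockout levels were 7.73, 7.17, 7.66 and 7.69 after saline and 8.58, 9.24, 8.47 and 8.36 after LPS. In neither genotype did the LPS and saline arrays overlap. The rise was 1.56-fold in wild-type hearts (0.64 ± 0.19 SE, limma adjusted p = 0.0232) and 2.15-fold in knockout hearts (1.10 ± 0.19, limma adjusted p = 0.000391). Without the 2nd knockout LPS array the knockout value was 0.91, still called. The wild-type call depended on single arrays: it was lost without the 1st saline array (0.51, limma adjusted p = 0.0884), the 1st LPS array (0.56, 0.0727) or the 3rd LPS array (0.61, 0.0600). Without both saline arrays that were high for skeletal muscle markers, the value was 0.46 (limma adjusted p = 0.248). The second Igfbp3 probe set changed by 0.82 in knockout hearts (limma adjusted p = 0.00585), and its wild-type value was 0.38 (0.220). Col4a2, a basement membrane collagen gene, Ltbr, a TNF-family receptor gene, and Ptpn1 lay nearest to Igfbp3, at 0.19, 0.21 and 0.21 log2 units. Ptpn1 encodes the phosphatase PTP1B, which dephosphorylates the insulin receptor, and it is among the feedback inhibitors described further on.

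Igfbp4 and Igfbp7 were not called in either genotype. Igfbp4, which encodes a binding protein cleaved by the protease PAPP-A, had levels of 10.52 ± 0.18, 10.40 ± 0.76, 10.53 ± 0.20 and 10.29 ± 0.30 (SD) in wild-type hearts after saline and after LPS and in knockout hearts after saline and after LPS. The wild-type LPS arrays ran from 9.62 to 11.36, on both sides of all saline arrays. Its change was -0.11 (95% interval -0.68 to 0.45) in wild-type and -0.24 (-0.80 to 0.33) in knockout hearts. The wild-type value was -0.43 without the 4th LPS array and 0.15 without the 3rd, and the knockout value was -0.088 without the 2nd LPS array. None of these was called, and the sign of the wild-type change thus depended on single arrays. None of its 6 probe sets was called.

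Igfbp7, which encodes a matrix-associated protein with low affinity for IGFs, had levels of 10.33, 10.47, 10.56 and 10.51 in wild-type saline and 10.58, 10.70, 10.64 and 10.72 in wild-type LPS hearts. The wild-type arrays did not overlap, but the difference of 0.19 ± 0.11 SE was not called (limma adjusted p = 0.239). Knockout levels were 10.72, 10.32, 10.46 and 10.46 after saline and 10.91, 10.83, 10.90 and 10.48 after LPS. The difference was 0.29 ± 0.11 and just missed the threshold (limma adjusted p = 0.0506). It passed under 7 of the 27 other settings, among them the fit without the 4th wild-type LPS array (0.29, limma adjusted p = 0.0414). None of its 3 probe sets was called.

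**Figure D3:**
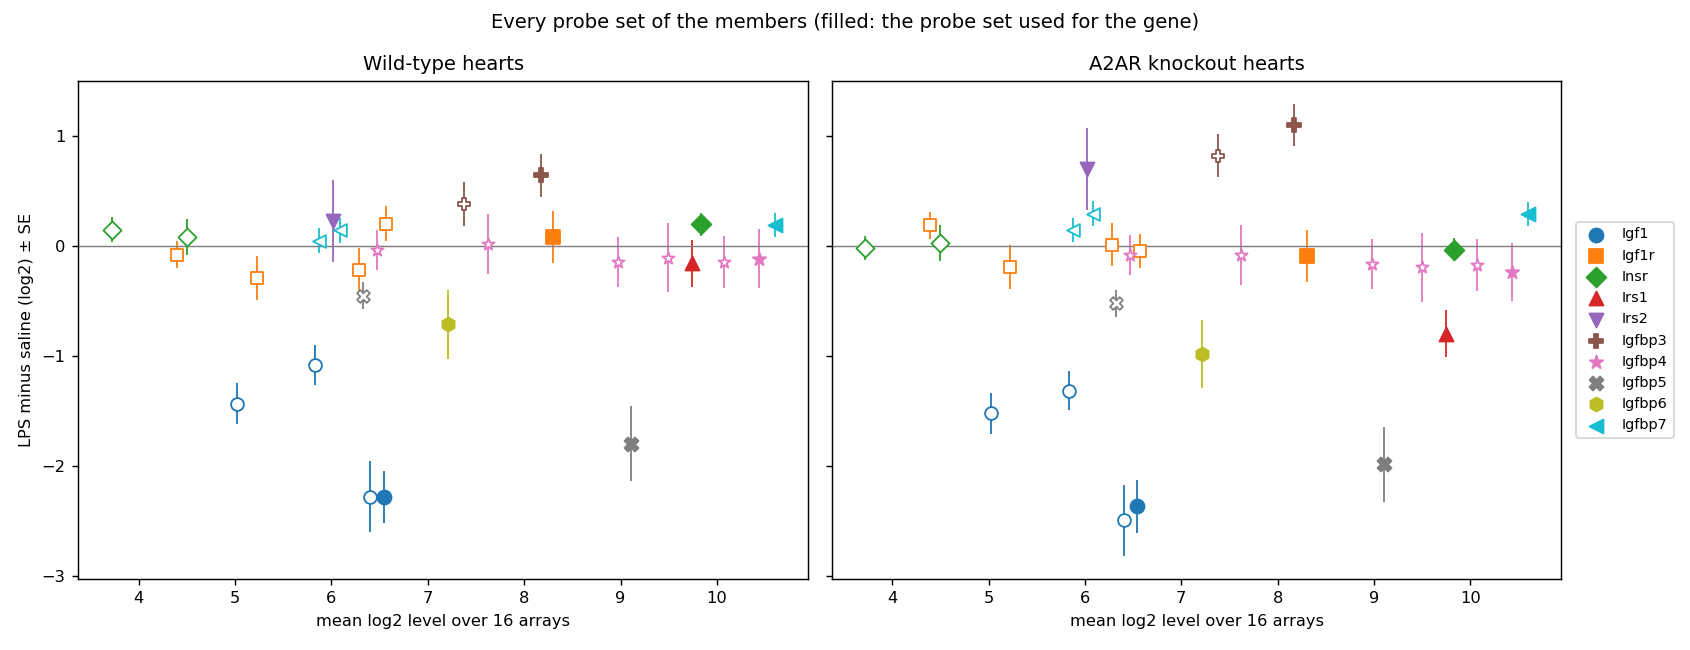
Log2 difference between LPS and saline hearts (± limma SE) against the mean log2 level over 16 arrays, for all 28 probe sets of the 10 genes. Filled symbols are the probe sets used and open symbols the others of the same gene. The 4 Igf1 probe sets all lie below -1, whereas the second Igfbp5 probe set, at a mean level of 6.32, changed less than the one used.

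The genotypes differed for no member at the threshold. Knockout against wild-type called 1 gene of 18193 after saline (0.0055%) and 1 after LPS (0.0055%), and the test of the difference between the LPS responses called 0 (0%). For the latter, 813 of the 18193 genes had an unadjusted p under 0.05 in limma. That is below a share of 0.05, the share expected where no gene differs. The same count was 634 for knockout against wild-type after saline and 1375 after LPS. After saline, the Igf1 arrays of the genotypes were just clear of each other by the probe set used (7.67 to 8.21 in wild-type, 7.24 to 7.66 in knockout). Such a lack of overlap held for no other member and for 3.89% of all genes. The difference was -0.46 ± 0.24 SE (limma adjusted p = 1), and -0.44 without both saline arrays that were high for skeletal muscle markers. Marker levels differed between the genotypes after saline as well. The mean of 4 adipocyte markers was between 5.54 and 5.97 in the wild type and between 4.67 and 5.25 in the knockout, with a median difference of -0.88, and 1 of the 4, Cidec, was called (-1.04, limma adjusted p = 0.00500). Adipoq differed by -1.32 and was not called. The 8 skeletal muscle markers had a median difference of -1.37, with means between 4.92 and 8.41 in the wild type and between 4.81 and 4.85 in the knockout, and none was called. The part of the adipocyte markers in the Igf1 difference was not tested. After LPS the knockout arrays were lower by -0.54 ± 0.24 for Igf1 and -0.55 ± 0.21 for Irs1, with limma adjusted p = 0.659 and 0.655. Without the pair of LPS arrays that stood apart, the Igf1 difference was -0.30 and that of Irs1 -0.49. No member's arrays were free of overlap in that comparison, against 2.26% of all genes. All 4 Igf1 probe sets had a knockout mean below the wild-type mean after either treatment, with differences from -0.46 to -0.16 after saline and from -0.54 to -0.38 after LPS, and none was called. The remaining differences between genotypes ran from -0.35 to 0.11 log2 units after saline and from -0.43 to 0.33 after LPS.

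The LPS responses of the genotypes share no arrays, and they differed most for Irs1, at the value given above. For Irs2 and Igfbp3 the knockout response was higher by 0.48 (95% interval -0.65 to 1.60) and 0.46 (-0.11 to 1.03). Without the 2nd knockout LPS array these differences were -0.036 and 0.27. Without the pair of LPS arrays that stood apart they were -0.21 and 0.22, so the sign for Irs2 depended on single arrays. For Igf1 the difference was -0.08 (-0.79 to 0.63), and for Igfbp5 it was -0.19 (-1.21 to 0.83). Both turned without the same pair, to 0.17 for Igf1 and 0.375 for Igfbp5. For Igfbp6 the difference was -0.27 (-1.20 to 0.66), and it also turned without that pair, to 0.341. None of these values was called. With 4 arrays per group these intervals are wide, and that of Igfbp5 holds a difference of 1 log2 unit.

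Within groups, Igfbp4, Igfbp5 and Igfbp6 deviated together from array to array. Over the 16 arrays, less their group means, the correlation was 0.91 between Igfbp4 and Igfbp5, 0.91 between Igfbp4 and Igfbp6 and 0.87 between Igfbp5 and Igfbp6. The pair of arrays that stood apart enters these values with large deviations. Those were 0.95, 1.30 and 1.16 on the 4th wild-type LPS array, and -0.44, -0.39 and -0.68 on the 2nd knockout LPS array. The correlations between members were not computed without that pair. All 3 also followed the mean of the fibroblast markers, with correlations of 0.92 for Igfbp4, 0.87 for Igfbp5 and 0.95 for Igfbp6. Over 14 arrays, without the pair that stood apart, these were 0.82, 0.74 and 0.81. Macrophage and monocyte markers moved in the same way, and their mean was 8.06 on the 4th wild-type LPS array against 6.89 to 7.45 on the rest of that group. The correlations of Igfbp4, Igfbp5 and Igfbp6 with this list were 0.91, 0.90 and 0.94 over 16 arrays and 0.775, 0.86 and 0.72 over 14. In the same order they were 0.81, 0.79 and 0.71 with endothelial markers, and 0.51, 0.41 and 0.14 over 14 arrays. With epicardial markers they were 0.745, 0.72 and 0.66, and 0.76, 0.52 and 0.67 over 14. The pattern was thus not particular to the fibroblast list. For Igfbp7 the correlation with the endothelial marker mean was 0.58 over 16 arrays and 0.84 over 14, and for Igf1 it was 0.66 and 0.59. These values describe arrays that share 1 RNA sample for all genes, and carry no test.

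**Figure D4:**
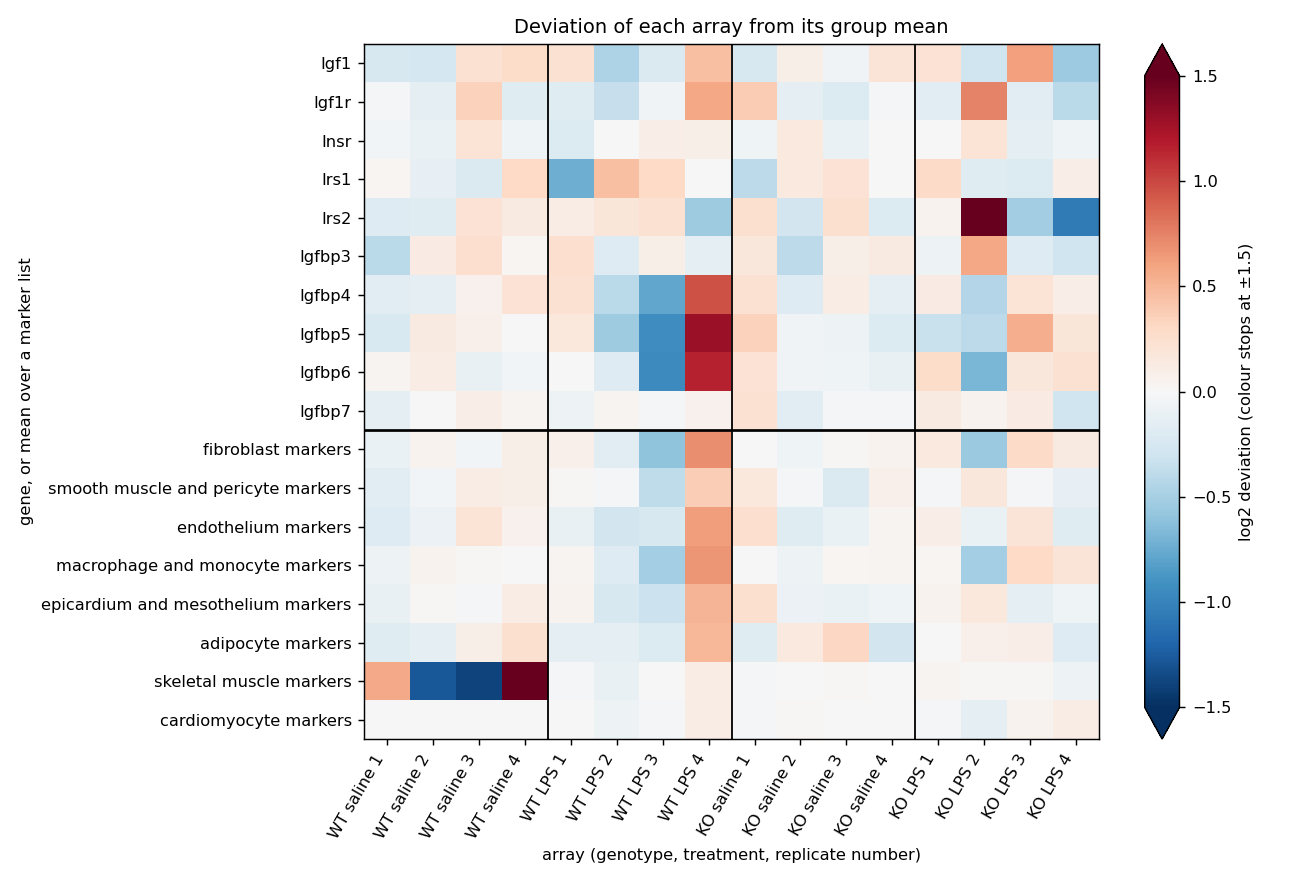
Deviation of each array from its group mean, in log2 units, for the 10 genes (upper rows) and the means of 8 marker lists (lower rows). Red is above and blue below the group mean, and the colour stops at 1.5. On the 4th wild-type LPS array Igfbp4, Igfbp5, Igfbp6 and the fibroblast and macrophage markers are all red, and on the 2nd knockout LPS array Igfbp4, Igfbp5 and Igfbp6 are blue and Irs2 is the deepest red.

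Marker levels moved with LPS as well. Of all genes, 9.28% rose and 11.6% fell in the wild type, and 11.4% rose and 14.7% fell in the knockout. Of 9 fibroblast markers 4 fell in each genotype, and the range of their mean went from 10.01 to 10.19 after saline to 8.70 to 9.99 after LPS in wild-type hearts. In knockout hearts it went from 9.95 to 10.06 to 8.59 to 9.43. Of 10 smooth muscle and pericyte markers 7 fell in each genotype, with means of 9.27 to 9.55 against 8.10 to 8.85 in wild-type hearts and 9.14 to 9.52 against 8.54 to 8.84 in knockout hearts. Of 10 endothelial markers 3 fell in the wild type and 5 in the knockout, and of 10 cardiomyocyte markers 6 fell in each. Of 11 macrophage and monocyte markers 4 rose and 2 fell in the wild type, and in the knockout 4 rose and 3 fell. Of 9 neutrophil markers 4 rose in each genotype. Of the smaller lists, 3 of 4 adipocyte markers fell in the wild type and 2 in the knockout, and 1 of 9 lymphocyte markers fell in each. Of 6 epicardial markers 2 fell in the wild type and 1 in the knockout, of 8 skeletal muscle markers 1 and 0 fell, and of 3 erythroid markers 0 and 1 fell. The part of these shifts in the falls of Igf1, Igfbp5 and Igfbp6 was not tested.

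Other genes of the pathway were read from 7 lists, of which 78 of 85 genes were measured. After LPS 17 rose and 13 fell in the wild type, where 9.28% of all genes rose and 11.6% fell. In the knockout 16 rose and 17 fell, where 11.4% of all genes rose and 14.7% fell. The counts of the single lists below are to be read beside the same shares. The lists were chosen with earlier results of these data known, so a count above its share is no test of the pathway. None of the 78 was called between genotypes or for the difference of responses. The median changes over the 78 genes were 0.018 and -0.11, beside the values over all genes given above. Of the further ligands, receptors and binding proteins, 8 were measured, 2 fell and none rose in each genotype. Igf2, the second IGF ligand, was between 8.07 and 8.64 on all saline arrays and between 6.24 and 7.49 on all LPS arrays. It fell by 1.81 ± 0.22 SE (log2) in the wild type and by 1.67 ± 0.22 in the knockout (limma adjusted p = 1.94e-05 and 3.67e-05). Igf2r, the receptor that clears IGF2, changed by -0.77 and -0.62. Both IGF ligand genes thus fell in both genotypes.

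Of 8 proteases and protease inhibitors that act on the binding proteins, 3 rose and 1 fell in the wild type, and in the knockout 3 rose and 2 fell. Adam9, a metalloprotease gene, rose by 1.25 and 1.44 in wild-type and knockout hearts. On the 4th wild-type LPS array it was 9.09, against 9.96 to 10.5 on the rest of that group. Pappa, which encodes the IGFBP4-cleaving protease PAPP-A, rose by 0.90 in both genotypes, and Stc1, an inhibitor of PAPP-A, by 0.68 in both. Htra1, a secreted serine protease gene, changed by -0.73 and -1.21.

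Of 6 genes of the growth hormone axis, which drives Igf1 transcription, 2 rose and 1 fell in the wild type, and in the knockout 3 rose and 2 fell. The receptor gene Ghr changed by -0.52 and -0.76. Jak2, its kinase, rose by 0.86 and 0.68, and Cish, a feedback inhibitor, by 1.15 and 0.94. Socs2, another feedback inhibitor, rose by 0.82 in knockout hearts, and its wild-type value was 0.78 (limma adjusted p = 0.0628). The difference of these responses was 0.041.

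Of 15 adaptors and feedback inhibitors of the receptors, 6 rose and 3 fell in the wild type, and in the knockout 5 rose and 3 fell. Socs3, a cytokine-induced inhibitor that also targets the IRS proteins, was between 5.36 and 6.31 on all saline arrays and between 8.22 and 10.90 on all LPS arrays, the 8.22 being the 4th wild-type LPS array. It rose by 3.99 ± 0.41 SE in wild-type and 4.26 ± 0.41 in knockout hearts (limma adjusted p = 2.95e-06 and 1.22e-06). Ptpn1 rose by 0.73 and 1.0. Grb14, an adaptor that inhibits the insulin receptor, changed by -1.24 and -1.84. Ptprf, a receptor phosphatase gene, rose by 1.71 in knockout hearts, and its wild-type value was 0.45 (difference of responses not called, limma adjusted p = 0.959). In knockout hearts the LPS arrays ran from 8.35 to 8.71, while the wild-type LPS arrays ran from 7.02 to 8.22. Inhibitors of the receptor thus moved in both directions.

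Of 13 PI3 kinase and AKT genes, 1 rose and 3 fell in the wild type, and in the knockout 1 rose and 4 fell. Pik3r1, a regulatory subunit of PI3 kinase, rose by 0.42 and 0.65. Phlpp1, an AKT phosphatase gene, changed by -0.78 and -1.14, and Inppl1, a lipid phosphatase gene, by -0.63 and -0.80. Of 15 mTOR and translation genes, 2 rose in each genotype and 1 fell in knockout hearts. Those that rose were Eif4ebp1, a translation repressor acted on by mTOR, by 1.48 and 1.13, and Ddit4, an mTOR inhibitor, by 1.38 and 1.67. Sesn1, a stress-induced mTOR inhibitor, fell by 1.20 on the log2 scale in knockout hearts, and its wild-type value was -0.19 (difference of responses not called, limma adjusted p = 0.959).

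Of 13 FOXO, GSK3 and glucose transport genes, 3 rose and 3 fell in the wild type, and in the knockout 2 rose and 3 fell. Slc2a4, which encodes the insulin-responsive glucose transporter GLUT4, changed by -1.28 and -1.68. It was between 11.12 and 11.36 on all saline arrays and between 9.36 and 10.90 on all LPS arrays, the 10.90 being the 4th wild-type LPS array. Pdk4, an inhibitor of pyruvate dehydrogenase induced by FOXO factors, rose by 1.87 and 2.17, and Fbxo32, a muscle ubiquitin ligase gene, by 1.20 and 1.17. On the 4th wild-type LPS array Fbxo32 was 9.80, within the wild-type saline range of 9.59 to 9.92, against 11.19 to 11.55 on the rest of that group. Pdk4 was 12.34 there, against 13.63 to 13.75, and below the highest wild-type saline array (12.63). Tbc1d4, which governs GLUT4 release to the membrane, changed by -0.99 in knockout hearts, and its wild-type value was -0.41 (difference of responses not called, limma adjusted p = 0.959).

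**Figure D5:**
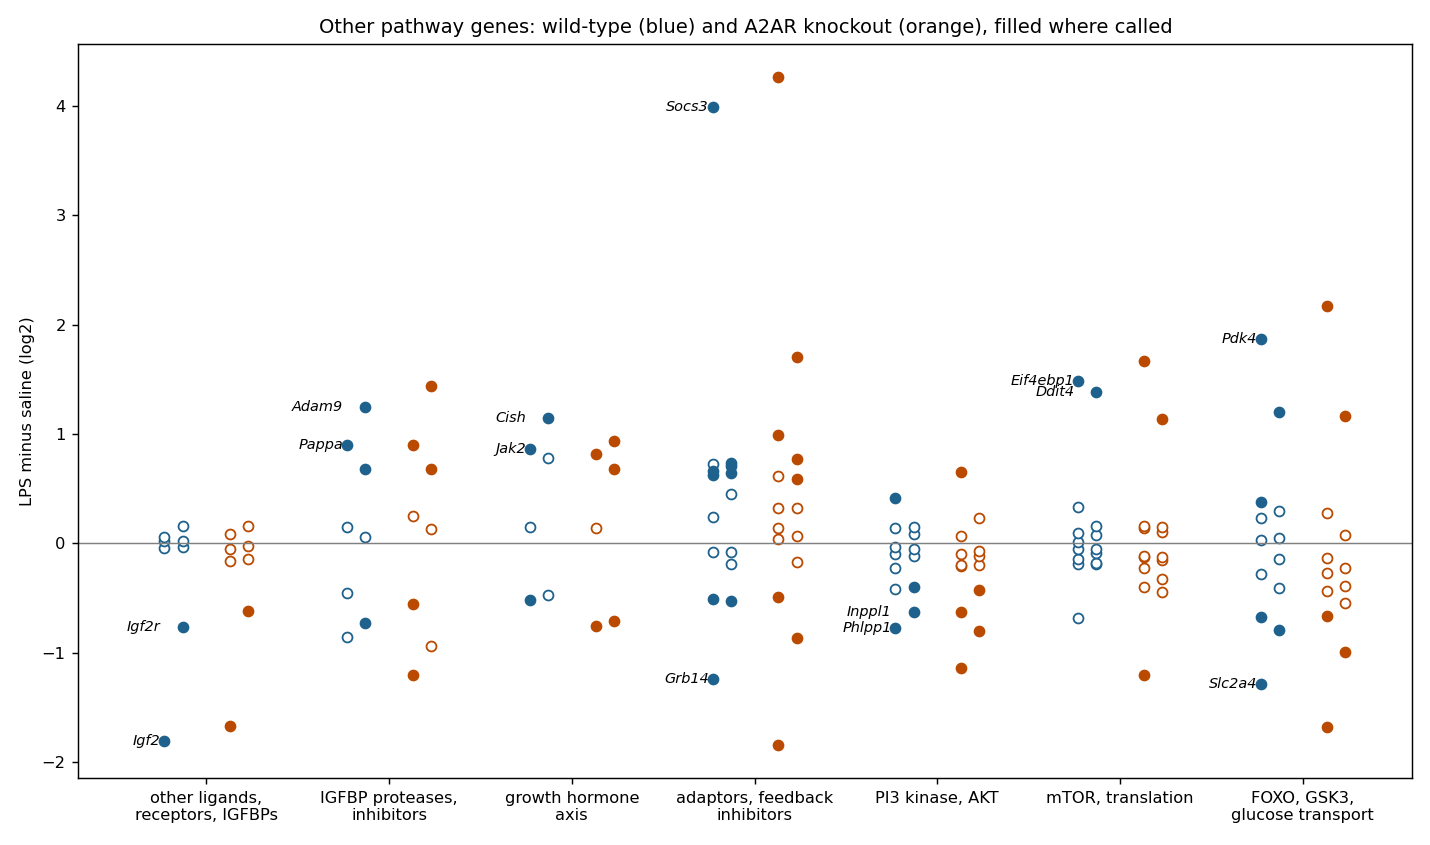
Log2 difference between LPS and saline hearts for 78 further genes of the pathway in 7 lists, wild-type in blue and A2AR knockout in orange. Filled points were called at an adjusted p under 0.05, and some called genes are named beside their wild-type point. Socs3 has the largest rise, at 3.99 and 4.26, and Igf2, Grb14 and Slc2a4 lie below -1 in both genotypes.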

How the data were processed

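RNA of 16 ventricular samples, 4 per group, was measured on 1 Affymetrix array each. The deposited log2 values were made by the authors with RMA (background correction, normalization and probe set summary), per the submitters' processing notes; its version is not given in the sources used here. Of 45101 probe sets, 34945 carried 1 gene symbol, and 932 with several, 9160 unnamed here and 64 controls were left out. The probe set with the highest mean was kept for each of 18193 genes.

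A linear model with 1 mean per group and an intensity trend in the variances was fitted with limma 3.58.1 (R 4.3.3) to all arrays, leaving 12 residual degrees of freedom. Tests are two-sided, p-values were adjusted by Benjamini-Hochberg over all genes, and a gene was called under 0.05. The code was tested on simulated data. The number of arrays limits the precision.

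All 10 members were named, with up to 4 called genes per pathway list with the largest changes and the 3 genes nearest to each called member. Members and lists were chosen with earlier results of these data known. Cidec and Adipoq were named after their values had been seen. The skeletal muscle arrays were known from such a look, and leaving out the pair of arrays that stood apart was chosen after seeing the data.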

Additional observations from a re-analysis of the deposited data

Results flagged for a closer look

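Of 40 combinations of member and group, 4 had an array far from the rest of its group, by the gap to the nearest other array over the whole range (Dixon's ratio, above its 95% critical value for 4 arrays). Chance flags about 1 in 20 such groups. Irs2 in wild-type LPS hearts had a ratio of 0.833, with the 4th array at 5.56 and the others between 6.2 and 6.32. Igfbp6 in knockout LPS hearts had a ratio of 0.90, with the 2nd array at 5.90 and the others between 6.75 and 6.84. These are the arrays that stood apart on the fibroblast markers. Igfbp3 in knockout saline hearts had a ratio of 0.87, with the 2nd array at 7.17 and the others between 7.66 and 7.73. Igfbp6 in knockout saline hearts had a ratio of 0.833, with the 1st array at 7.78 and the others between 7.45 and 7.5.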

How the results depend on the processing

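Across 27 other settings, the count of called members ran from 2 to 4 in wild-type hearts (3 as reported) and from 4 to 7 in knockout hearts (5 as reported), with 0 in each comparison of genotypes. Of 1340 member values under these settings, 8 lost a call, 11 gained one, none of the 8 called values changed sign, and 68 uncalled values did. The falls of Igf1 and Igfbp5 in both genotypes, of Irs1 in knockout hearts and the rise of Igfbp3 in knockout hearts were called under every setting. With the mean of a gene's probe sets, Igfbp3 in wild-type hearts was 0.51 (limma adjusted p = 0.0550). With array weights, Igfbp6 in wild-type hearts was -0.95 (limma adjusted p = 0.000973). Fitting only the groups compared was possible for all but the difference of responses.

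Same-numbered arrays of different groups had deviations that correlated between -0.27 and 0.33. The labels do not say that the numbers pair samples, and correlations of this kind cannot exclude a pairing. With the replicate number as a replicate block, 3 members were called after LPS in the wild type, 5 in the knockout and 0 between genotypes, and the calls over all genes went from 3798 to 3537 in wild-type and from 4744 to 4487 in knockout hearts.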
